A study of Rattus norvegicus with 57 samples.

Results

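Livers of rats given 80 mg/kg of methapyrilene a day were compared with livers of rats given 30 mg/kg a day, both taken on day 4 of dosing. The comparison holds 9 of the 57 arrays of the series, 4 at 80 mg/kg and 5 at 30 mg/kg. They were chosen by the dose and day in their labels, with no measured value used, and all 10725 measured genes were tested. Both groups were male Han Wistar rats, 8 to 10 weeks old, housed singly, dosed by mouth each day with the compound in carboxymethylcellulose, so every animal of the contrast carried both the drug and the vehicle. The study planned 6 rats a group, and 4 and 5 arrays were analysed here, 1 array of whole liver RNA for each labelled animal. The 5 livers of day 4 that received vehicle alone (0 mg/kg) stand outside the contrast, and their levels are given beside it. The same doses on day 8 (5 arrays each), day 15 (5 each) and day 24, after 14 days of dosing and 10 of recovery (5 at 80 mg/kg and 4 at 30 mg/kg), served to set the day 4 difference beside that of other animals. P-values of genes rest on the spread within the 12 groups of dose and day of all 57 arrays, vehicle arrays of the later days included. The number of arrays compared limits the precision of each value.

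Methapyrilene is an antihistamine that is toxic to the rat liver, where cytochrome P450 enzymes of hepatocytes convert it to reactive products. Reactive products that bind glutathione and proteins set off defence programmes in liver cells. The transcription factor Nrf2 raises glutathione transferases, reductases and efflux pumps, and ATF4 raises genes of amino acid supply and tRNA charging. The factor p53 answers to DNA damage, and hepatocytes, quiescent in the adult, re-enter the cell cycle when liver mass is lost. A damaged liver also makes less of the plasma proteins, bile acid transporters and urea cycle enzymes for which it is known.

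Values are MAS5 signals of Affymetrix Rat Genome 230 2.0 arrays, a linear brightness with every array scaled to 1 common level. Differences are log2 fold changes of 80 over 30 mg/kg with their standard error from limma, and a gene was called when its Benjamini-Hochberg adjusted p over all genes was under 0.05. Of the 10725 genes, 1420 were higher at 80 mg/kg (13.2%) and 734 were lower (6.84%), together 20.1%. At least 2-fold changes among these numbered 174 higher (1.62%) and 38 lower (0.354%), and the median size of a called difference was 0.44 on the log2 scale. All arrays of the 80 mg/kg group lay above all of the 30 mg/kg group for 1110 genes (10.3%), and below for 598 (5.58%). Beside vehicle, 2952 genes (27.5%) were called at 80 mg/kg and 84 (0.783%) at 30 mg/kg, in comparisons that share these arrays.

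The count depended on 1 array: without 80 mg/kg replicate 5 it was 1110, and leaving out any other array gave 1716 to 2266. The median signal of the tested genes was 100.5 to 105.1 on the 80 mg/kg arrays and 91.1 to 95.2 on the 30 mg/kg arrays (two-sided exact permutation p = 0.0079, the smallest this design allows). The median log2 fold change of all genes was 0.08, and -0.05 with arrays shifted to a common median, when 702 genes were higher and 1455 lower. With quantile normalization 1109 were higher and 817 lower. Actin 3'/5' signal ratios, a measure of RNA integrity, were 5.08 ± 0.80 and 4.71 ± 0.79 in the 80 and 30 mg/kg groups (SD, n = 4 and 5, exact permutation p = 0.4921). Gapdh 3'/5' ratios were 1.52 ± 0.04 and 1.45 ± 0.08 in the same groups (SD, exact permutation p = 0.1429). The median correlation of an array with the others of its group was 0.9724 to 0.9765 at 80 mg/kg. At 30 mg/kg that correlation was 0.969 to 0.9718 (exact permutation p = 0.0079). Correlations of a group share arrays and are not independent, so this p-value cannot be read as a test of agreement within groups. The tissue label held: of 8 hepatocyte markers 7 were measured, among them albumin, transthyretin and apolipoprotein A1, with a summed signal of 40296 to 42919.6 at 80 mg/kg and 35782 to 50478 at 30 mg/kg, and none of the 7 was called.

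**Figure D1:**
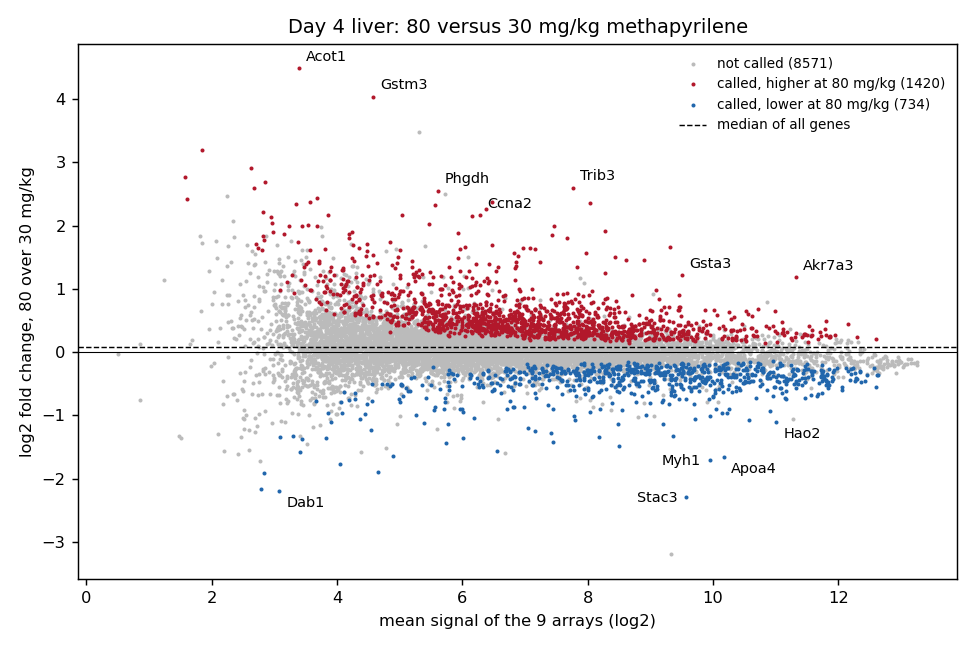
Each point is 1 of the 10725 genes, with the mean log2 signal of the 9 arrays on the x axis and the log2 fold change of 80 over 30 mg/kg on the y axis. The 1420 genes called higher are red, the 734 called lower are blue, and the dashed line is the median of all genes; the red points reach above 4 and the blue points to just below -2.

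Cell cycle genes were higher at 80 mg/kg. Of 35 measured mitosis genes 23 rose at 80 mg/kg and 0 fell, with a median log2 fold change of 1.29 against 0.08 over all genes. In 32 of the 35 every 80 mg/kg liver was above every 30 mg/kg liver, as in 10.3% of all genes. Of 29 DNA replication genes 20 rose and 0 fell, with a median of 0.76. The summed signal of the mitosis genes was 2722 to 4433 at 80 mg/kg, 799 to 2024 at 30 mg/kg and 624.7 to 1749 with vehicle. In RNA from whole liver, more dividing cells and more RNA in each dividing cell cannot be told apart.

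Promoter windows of genes from these groups are printed because known cell cycle motifs stand in them. They run from before the start of the gene to just after it, come from RefSeq on rat assembly GRCr8, and are written 5′ to 3′ along the gene in lower case with matches in capitals. In the Cdkn3 window (chr15:22502136-22502435, plus strand) and the Ect2 window (chr2:111966577-111966876, minus strand) the capitals mark CCAAT or its complement ATTGG, and the cell cycle element TTTGAA or its complement TTCAAA. In the Chaf1a window (chr9:960975-961274, plus strand) they mark the E2F element GCGGGAA read from the other strand.
Cdkn3: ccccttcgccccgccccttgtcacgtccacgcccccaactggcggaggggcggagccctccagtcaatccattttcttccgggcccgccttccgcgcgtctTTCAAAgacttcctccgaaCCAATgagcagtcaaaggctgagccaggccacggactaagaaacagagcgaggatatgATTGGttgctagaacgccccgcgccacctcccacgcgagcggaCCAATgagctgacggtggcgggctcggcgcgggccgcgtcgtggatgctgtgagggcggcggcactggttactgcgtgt
Ect2: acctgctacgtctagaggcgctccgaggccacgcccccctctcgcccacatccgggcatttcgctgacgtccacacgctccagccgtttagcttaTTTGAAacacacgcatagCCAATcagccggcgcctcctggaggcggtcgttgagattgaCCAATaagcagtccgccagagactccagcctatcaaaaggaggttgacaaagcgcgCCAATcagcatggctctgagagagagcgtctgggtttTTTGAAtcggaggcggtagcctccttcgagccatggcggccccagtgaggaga
Chaf1a: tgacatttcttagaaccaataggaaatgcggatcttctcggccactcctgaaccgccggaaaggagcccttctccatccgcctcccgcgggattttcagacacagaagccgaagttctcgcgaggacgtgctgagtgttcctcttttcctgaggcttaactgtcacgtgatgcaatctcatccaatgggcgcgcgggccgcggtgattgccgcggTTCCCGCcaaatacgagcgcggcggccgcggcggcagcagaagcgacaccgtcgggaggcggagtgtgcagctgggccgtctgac
CCAAT was found on either strand in 18 of 21 windows of the called mitosis genes, and in 37.5% of all 33469 windows. TTTGAA was found in 16 of those 21 windows, against 18.3% of all. The E2F element was found in 11 of 18 windows of called replication genes, against 4.21% of all and 7.92% of the windows of tested genes. Over the measured members, called or not, the counts were 24 and 23 of 32 mitosis windows and 13 of 27 replication windows. Cdkn3 has another, overlapping window in the table, so some of these windows share sequence. Matches of one motif did not overlap those of another in the printed windows, and a match describes letters, not binding.

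Ccna2, the cyclin that carries cells through DNA synthesis into mitosis, had signals of 147, 189, 223 and 163 in the 80 mg/kg livers, against 16.6, 58.1, 61.0, 24.5 and 69.5 in the 30 mg/kg livers. The groups were fully apart (log2 fold change 2.16 ± 0.53, adjusted p = 0.00256), and vehicle livers averaged 27.1 ± 23.3 (SD, n = 5). Cdkn3, a phosphatase of cyclin-dependent kinases, gave 204, 502, 414 and 496 in the 80 mg/kg livers, against 37.9, 165, 118, 67.4 and 163 in the 30 mg/kg livers (1.99 ± 0.65, adjusted p = 0.0227). Ect2, which places the furrow of dividing cells, gave 130.3, 162, 223 and 176 in the 80 mg/kg livers, against 19.2, 72.6, 86.1, 35.2 and 95.7 in the 30 mg/kg livers (1.69 ± 0.54, adjusted p = 0.0213). In both genes the 30 mg/kg livers were spread widely, with replicates 1 and 4 low and replicates 2, 3 and 5 high. Pbk, a mitotic kinase, gave 37.2 ± 8.32 in the 80 mg/kg livers and 10.8 ± 2.71 in the 30 mg/kg livers (SD, n = 4 and 5, 1.80 ± 0.53, adjusted p = 0.0122), without that spread.

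Mcm3, a subunit of the helicase that opens replication origins, had signals of 37.6, 33.5, 40.3 and 57.4 in the 80 mg/kg livers, against 5.39, 14.2, 23.6, 10.9 and 23.1 in the 30 mg/kg livers (1.61 ± 0.47, adjusted p = 0.0105). The lowest 80 mg/kg liver was above the highest 30 mg/kg liver. Chaf1a and Chaf1b, which place histones on new DNA, had log2 fold changes of 1.998 ± 0.75, adjusted p = 0.0499 and 1.44 ± 0.48, adjusted p = 0.0269. Chaf1a was among the weakest calls, with signals of 11.9, 20.1, 22.1 and 32.7 in the 80 mg/kg livers, against 1.10, 10.9, 16.8, 5.35 and 3.20 in the 30 mg/kg livers, which overlap at 1 array. Ccne2, a cyclin that starts DNA synthesis, averaged 29.4 ± 10.8 in the 80 mg/kg livers and 11.6 ± 2.67 in the 30 mg/kg livers (1.29 ± 0.40, adjusted p = 0.0154).

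The cell cycle counts depended on single arrays. The mitosis count was 13 without 80 mg/kg replicate 4, without 80 mg/kg replicate 5 or without 30 mg/kg replicate 1, and the replication count was 9 without 80 mg/kg replicate 5; no member of either list was called lower in these fits. Without 80 mg/kg replicate 5 the adjusted p was 0.0818 for Cdkn3, 0.0627 for Ect2, 0.0573 for Mcm3, 0.162 for Chaf1a, 0.123 for Chaf1b and 0.0931 for Ccne2. The calls also ended for Cdkn3 and Ect2 without 80 mg/kg replicate 4 (0.0522 and 0.0646) or 30 mg/kg replicate 1 or 4 (0.0748 and 0.0533 for Cdkn3, 0.0844 and 0.056 for Ect2), and for Cdkn3 without 80 mg/kg replicate 3 (0.061). Chaf1a lost its call in 6 of the 9 fits (30 mg/kg replicates 1, 4 and 5, and 80 mg/kg replicates 3, 4 and 5; 0.0731 to 0.175) and Chaf1b also without 30 mg/kg replicate 4 (0.12). Ccna2 and Pbk were called in all 9.

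ATF4 pathway genes also rose: 13 of 32 measured members were higher at 80 mg/kg and 1 was lower, with a median of 0.51. Of 19 cytosolic aminoacyl-tRNA synthetases, the enzymes that load amino acids onto tRNA, 11 rose and 0 fell, with a median of 0.30. The windows of Trib3 (chr3:161275484-161275783, minus strand) and Slc7a1 (chr12:11664238-11664537, plus strand) are shown because each holds the ATF4 element TGATGNAA close to the start of the gene. Capitals mark it, in Trib3 as its complement TTNCATCA.
Trib3: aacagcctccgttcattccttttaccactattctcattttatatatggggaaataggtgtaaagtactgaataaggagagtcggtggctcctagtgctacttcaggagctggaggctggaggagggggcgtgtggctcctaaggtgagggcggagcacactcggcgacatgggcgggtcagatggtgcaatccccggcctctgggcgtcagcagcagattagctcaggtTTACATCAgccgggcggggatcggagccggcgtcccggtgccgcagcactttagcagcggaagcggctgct
Slc7a1: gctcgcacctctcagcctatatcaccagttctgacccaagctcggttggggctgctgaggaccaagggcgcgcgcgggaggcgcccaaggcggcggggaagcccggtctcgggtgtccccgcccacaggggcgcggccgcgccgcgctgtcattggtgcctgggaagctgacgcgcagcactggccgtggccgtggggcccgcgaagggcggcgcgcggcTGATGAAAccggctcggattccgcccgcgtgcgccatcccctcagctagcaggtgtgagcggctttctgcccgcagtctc
The element stood in 4 of 12 windows of called ATF4 pathway genes (Fgf21, Nupr1, Slc7a1 and Trib3) and in 3 of 10 of called synthetases (Iars1, Nars1 and Yars1), against 3.98% of all windows and 2.07% of those of tested genes. Over the measured members, called or not, it stood in 5 of 30 ATF4 pathway windows and 7 of 17 synthetase windows, so it was no more common in called synthetases than in the rest.

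Trib3, a pseudokinase that feeds back on ATF4, had signals of 335, 503, 698 and 1034 in the 80 mg/kg livers, against 367, 59.7, 71.0, 56.0 and 100.5 in the 30 mg/kg livers. Its log2 fold change was 2.60 ± 0.36, adjusted p = 1.03e-06, although 30 mg/kg replicate 1 lay inside the 80 mg/kg range while the other 30 mg/kg livers were below it. The vehicle mean was 56.7 ± 24.9. Slc7a1, which carries arginine and lysine into cells, had signals of 41.7, 65.4, 91.6 and 131 in the 80 mg/kg livers, against 28.0, 18.6, 12.1, 11.02 and 19.2 in the 30 mg/kg livers (2.17 ± 0.30, adjusted p = 1.03e-06). Its groups were apart, with replicate 1 again the highest of the 30 mg/kg livers. Phgdh, the first enzyme of serine synthesis, gave 64.8, 138, 133 and 241 in the 80 mg/kg livers, against 37.8, 25.5, 14.1, 17.9 and 22.0 in the 30 mg/kg livers (2.55 ± 0.75, adjusted p = 0.0119), also without overlap.

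Fgf21, a hormone that the stressed liver secretes, had signals of 302, 136, 205 and 625 in the 80 mg/kg livers, against 239.8, 81.5, 71.8, 37.4 and 93.4 in the 30 mg/kg livers (1.64 ± 0.38, adjusted p = 0.00173). Here too 30 mg/kg replicate 1 was among the 80 mg/kg livers. The member that fell was Aldh1l2, a mitochondrial folate enzyme, at 839.8 ± 30.3 in the 80 mg/kg livers and 1116 ± 210.5 in the 30 mg/kg livers (-0.39 ± 0.12, adjusted p = 0.0164). Among the synthetases Sars1, for serine, gave 302, 367, 456 and 544 in the 80 mg/kg livers, against 239, 218, 264, 219 and 253 in the 30 mg/kg livers (0.78 ± 0.13, adjusted p = 1.93e-05). The groups did not overlap. Smaller rises were those of Iars1 for isoleucine (0.62 ± 0.14, adjusted p = 0.000819), Nars1 for asparagine (0.54 ± 0.10, adjusted p = 0.000128) and Gars1 for glycine (0.50 ± 0.11, adjusted p = 0.000545), and in each the groups were apart as well.

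The ATF4 count without 80 mg/kg replicate 5 was 8 higher and 1 lower and the synthetase count 7 and 0, and Phgdh was not called (adjusted p = 0.0683). Aldh1l2 was not called without 30 mg/kg replicate 3 (0.083). With arrays at a common median 5 synthetases rose and 0 fell. ER chaperone and degradation genes, which answer to misfolded proteins, held no rise: 0 of 24 were higher and 3 lower, with a median of 0.01. Sel1l, of the complex that sends misfolded proteins out of the ER, averaged 170.4 ± 6.89 in the 80 mg/kg livers and 233 ± 15.96 in the 30 mg/kg livers (-0.45 ± 0.10, adjusted p = 0.000553). Pdia4, a disulfide isomerase, averaged 1582 ± 132 in the 80 mg/kg livers and 1965 ± 76.7 in the 30 mg/kg livers (-0.32 ± 0.10, adjusted p = 0.0146), and was not called without 80 mg/kg replicate 3 (0.0776).

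Detoxification genes were counted by family, beside 13.2% of all genes higher and 6.84% lower. Of 25 Nrf2 target genes 9 rose and 0 fell (median 0.28), of 18 glutathione transferases 5 rose and 2 fell (median 0.01), and of 16 aldo-keto reductases and aldehyde dehydrogenases 2 rose and 4 fell (median -0.13). The 16 Nrf2 targets not called included Nqo1, Gclm and Hmox1 (log2 fold changes of 0.05, -0.01 and 0.16), and the 9 that rose included Gclc and Txnrd1 (0.41 and 0.47). The window of Gstp1 (chr1:210769656-210769955, minus strand) is shown for the Nrf2 element TGACNNNGC, in capitals, which this transferase gene carries upstream of its start.
Gstp1: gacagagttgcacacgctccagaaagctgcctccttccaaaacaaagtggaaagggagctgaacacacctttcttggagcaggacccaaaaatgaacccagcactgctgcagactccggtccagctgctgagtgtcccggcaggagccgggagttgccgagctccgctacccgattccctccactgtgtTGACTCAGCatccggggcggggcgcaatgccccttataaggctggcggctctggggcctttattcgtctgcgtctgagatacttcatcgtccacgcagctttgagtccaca
The element was found in 3 of 6 windows of called transferases (Gsta3, Gstm5 and Gstp1). Of the windows of called Nrf2 targets, 3 of 10 held it (Abcc2, Ephx1 and Txnrd1), against 12.1% of all windows and 14.7% of those of tested genes. Over the measured members, called or not, it was found in 6 of 16 transferase and 7 of 24 Nrf2 target windows. The windows of Gstm3, Srxn1 and Abcc4, which rose, held no match to these letters, while that of Gstz1, which fell, held 1. Variants of the element were not searched, and the Srxn1 window holds TGAGTCAGC, with G where the pattern has C.

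Gstm3, a transferase that conjugates glutathione, had signals of 39.2, 159, 119 and 219 in the 80 mg/kg livers, against 22.6, 4.86, 3.36, 5.96 and 6.93 in the 30 mg/kg livers. It was 11 times higher after adding an offset of 3.31 that damps signals near the floor (4.04 ± 0.73, adjusted p = 8.26e-05), and its 30 mg/kg mean was close to the vehicle mean of 9.79 ± 7.29. Gsta3, an alpha class transferase, gave 1263, 1137, 998 and 1265 in the 80 mg/kg livers, against 355, 369, 650.1, 459 and 782 in the 30 mg/kg livers (1.22 ± 0.30, adjusted p = 0.00247). All 80 mg/kg livers were above all 30 mg/kg livers, which were in turn above the vehicle mean of 147 ± 44.7. Gstp1 gave 371, 1244, 269.6 and 1807 in the 80 mg/kg livers, against 266, 263, 304, 190.2 and 245 in the 30 mg/kg livers (1.46 ± 0.33, adjusted p = 0.00109). Its 80 mg/kg livers fell apart, replicates 3 and 5 far above the rest and replicates 2 and 4 near the 30 mg/kg livers. Gstz1, a transferase that serves tyrosine breakdown, went the other way, at 2382 ± 242 in the 80 mg/kg livers and 3288 ± 214 in the 30 mg/kg livers (-0.47 ± 0.10, adjusted p = 0.000624). Transferases are close relatives in sequence, and their probe sets may not separate all copies.

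Srxn1, which repairs oxidised peroxiredoxins, had signals of 139, 177, 261 and 464 in the 80 mg/kg livers, against 112, 54.8, 66.8, 71.4 and 81.6 in the 30 mg/kg livers (1.64 ± 0.21, adjusted p = 4.07e-07). The groups were apart, and the 30 mg/kg mean was near that of vehicle (81.0 ± 6.82). Abcc3, an efflux pump of the sinusoidal membrane, gave 63.0, 114, 88.6 and 136 in the 80 mg/kg livers, against 25.6, 30.0, 30.8, 14.4 and 21.3 in the 30 mg/kg livers (2.03 ± 0.41, adjusted p = 0.000336). Its relative Abcc4 averaged 61.9 ± 19.4 in the 80 mg/kg livers and 26.9 ± 7.31 in the 30 mg/kg livers (1.19 ± 0.21, adjusted p = 4.37e-05). Both pumps were higher in every 80 mg/kg liver than in any 30 mg/kg liver.

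Akr7a3, a reductase of toxic aldehydes, had signals of 2568, 4098, 5097 and 4933 in the 80 mg/kg livers, against 2398, 1248, 2200.3, 1148 and 2337 in the 30 mg/kg livers (1.18 ± 0.22, adjusted p = 0.000104). The groups were apart by a narrow margin, and the vehicle mean was 956 ± 161. Akr1b8, an aldose reductase relative, gave 214 ± 90.9 in the 80 mg/kg livers and 41.9 ± 8.36 in the 30 mg/kg livers (2.26 ± 0.35, adjusted p = 8.39e-06). The larger falls were those of Aldh1b1, a mitochondrial aldehyde dehydrogenase, at 97.5 ± 52.4 in the 80 mg/kg livers and 247 ± 152 in the 30 mg/kg livers (-1.25 ± 0.43, adjusted p = 0.0338), and of Akr1c3, a reductase of steroids, at 238 ± 41.4 in the 80 mg/kg livers and 355 ± 22.5 in the 30 mg/kg livers (-0.59 ± 0.21, adjusted p = 0.0373). The other 2 were Aldh2 (-0.40 ± 0.08, adjusted p = 0.000172) and Akr7a2 (-0.25 ± 0.085, adjusted p = 0.0324), both with their groups apart. Their values with single arrays left out are not given here.

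The Nrf2 count without 80 mg/kg replicate 5 was 3, and the adjusted p was 0.174 for Aldh1b1 and 0.166 for Akr1c3. Aldh1b1 also lost its call without 80 mg/kg replicate 4 or 30 mg/kg replicate 2 or 3 (0.095, 0.115 and 0.115), and Akr1c3 in 7 of the 9 fits (0.0506 to 0.166), all but those without 30 mg/kg replicate 1 or 80 mg/kg replicate 4. With arrays at a common median the Nrf2 count was 4, and the transferases turned to 3 higher and 4 lower, with a median of -0.11.

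Some of the genes that differed between the doses were also called at 30 mg/kg. Against vehicle, in comparisons that share the 30 mg/kg arrays with the one above, the log2 fold change at 30 mg/kg was 1.82 ± 0.28, adjusted p = 0.000289 for Gsta3, 1.48 ± 0.36, adjusted p = 0.0363 for Fgf21, 1.14 ± 0.27, adjusted p = 0.0289 for Igfbp2 and 0.91 ± 0.20, adjusted p = 0.0235 for Akr7a3, and at 80 mg/kg it was 3.04, 3.11, 2.42 and 2.09 for the same genes. These 4 were called at both doses. Abcc3 had 1.38 ± 0.39, adjusted p = 0.0749 at 30 mg/kg and 3.42 ± 0.41, adjusted p = 1.75e-08 at 80 mg/kg. Gstm3, Srxn1, Slc7a1 and Sars1 had -0.09, -0.10, 0.29 and -0.001 at 30 mg/kg (adjusted p of 0.71 to 0.999), and 3.95, 1.53, 2.46 and 0.78 at 80 mg/kg, all called.

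**Figure D2:**
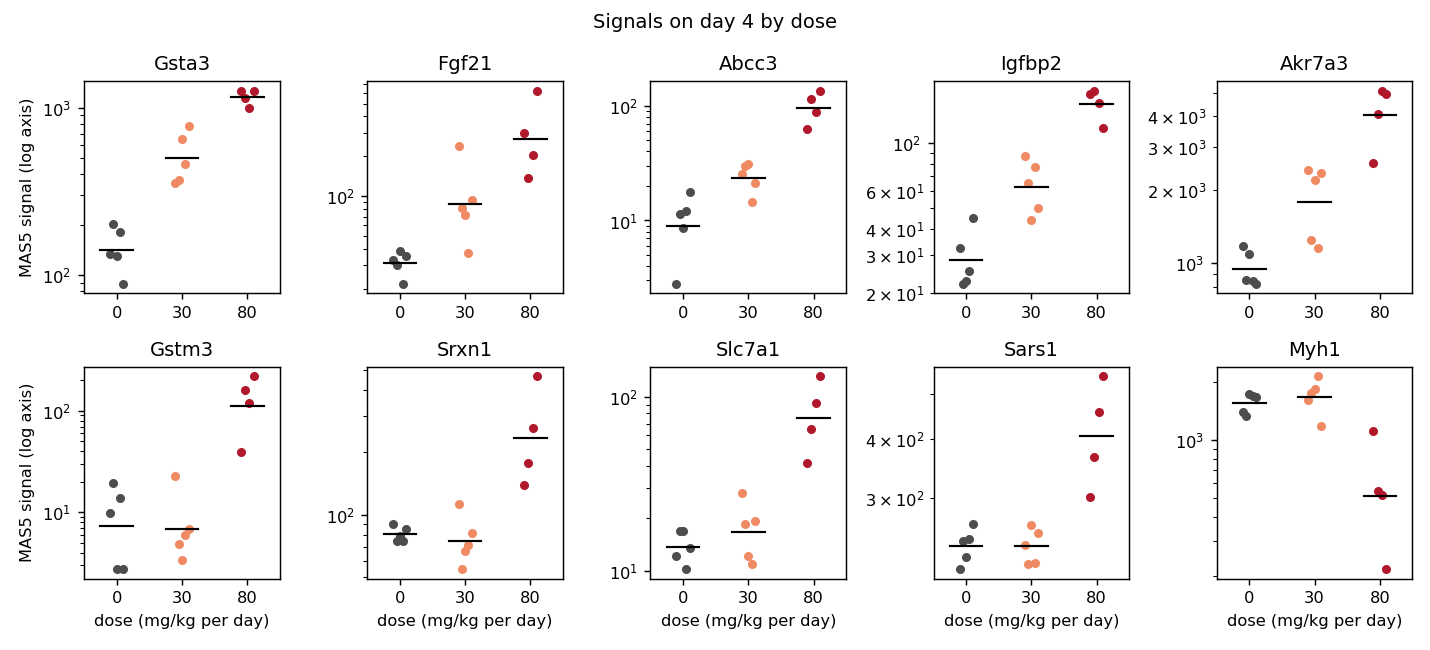
Signals on a log axis by daily dose, 1 point a liver (5 at 0, 5 at 30 and 4 at 80 mg/kg), with a line at the mean of the logs. In the upper row the 30 mg/kg livers stand mostly between vehicle and 80 mg/kg, as for Gsta3 with means of 147, 523 and 1166; in the lower row they lie with vehicle, as for Sars1 with means of 239, 239 and 417.

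Of 18 p53 target genes 7 rose and 0 fell, with a median of 0.33. Gadd45a, which halts the cycle after DNA damage, had signals of 362, 255, 375 and 626 in the 80 mg/kg livers, against 164, 72.4, 316, 227 and 92.8 in the 30 mg/kg livers (1.34 ± 0.39, adjusted p = 0.0114). Replicate 3 of the 30 mg/kg group lay among the 80 mg/kg livers. Ddit4l, an inhibitor of the growth kinase mTOR, gave 20.7 ± 4.55 in the 80 mg/kg livers and 6.60 ± 3.35 in the 30 mg/kg livers (1.74 ± 0.40, adjusted p = 0.00137), and 30 mg/kg replicate 5 was well above the others of its group. Phlda3, a repressor of Akt signalling, averaged 185 ± 61.0 in the 80 mg/kg livers and 97.7 ± 6.96 in the 30 mg/kg livers (0.86 ± 0.25, adjusted p = 0.0116). Aen, a nuclease of apoptosis, averaged 135 ± 47.1 in the 80 mg/kg livers and 74.5 ± 14.6 in the 30 mg/kg livers (0.82 ± 0.16, adjusted p = 0.000317). Without 80 mg/kg replicate 5 the count was 4, with adjusted p of 0.0841 for Gadd45a and 0.0768 for Phlda3; Gadd45a was also not called without 30 mg/kg replicate 2 (0.0544), nor Phlda3 without 80 mg/kg replicate 4 (0.0638).

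Immediate early genes, which respond within minutes to growth factors and stress, were called about as often as genes at large: of 20 measured, 2 rose (10% against 13.2% of all genes) and 1 fell (5% against 6.84%), with a median of -0.28. Myc, a driver of growth, had signals of 468, 341, 562 and 721 in the 80 mg/kg livers, against 108, 191, 324, 209 and 296 in the 30 mg/kg livers (1.26 ± 0.41, adjusted p = 0.0227), and every 80 mg/kg liver was higher. Klf6 averaged 209.9 ± 97.4 in the 80 mg/kg livers and 112 ± 35.4 in the 30 mg/kg livers (0.85 ± 0.17, adjusted p = 0.000362). Dusp1, a phosphatase that shuts off stress kinases, fell to 572 ± 153 in the 80 mg/kg livers, against 1249 ± 489.5 in the 30 mg/kg livers (-1.06 ± 0.31, adjusted p = 0.0123). Without 80 mg/kg replicate 5 neither Myc nor Dusp1 was called (0.109 and 0.0669), nor was Myc without 80 mg/kg replicate 4 (0.0578) or 30 mg/kg replicate 1 (0.0811). Of 15 heat shock genes 2 rose and 0 fell, a share of 13.3% higher that was near the 13.2% of all genes. The 2 were the small chaperone Hspb8 and the mitochondrial chaperonin Hspd1 (log2 fold changes of 0.50 and 0.24). Of 30 proteasome subunits 6 rose (20% against 13.2% of all genes) and 1 fell (3.33% against 6.84%), with a median of 0.11. With arrays at a common median 0 proteasome subunits rose and 1 fell.

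The largest rise among called genes was that of Acot1, a cytosolic thioesterase that frees fatty acids from coenzyme A. Its signals were 23.9, 40.9, 91.6 and 134 in the 80 mg/kg livers, against 11.3, 4.80, 0.430, 2.84 and 1.88 in the 30 mg/kg livers. It was near the floor without the high dose, and 9.31 times higher with the offset (4.49 ± 1.07, adjusted p = 0.00198). Acot2, its mitochondrial relative, gave 689, 1084, 1569.7 and 1782 in the 80 mg/kg livers, against 784, 295, 301, 292 and 385 in the 30 mg/kg livers (1.67 ± 0.23, adjusted p = 1.03e-06), with 30 mg/kg replicate 1 inside the 80 mg/kg range. These thioesterases have near-identical copies, and how far their probe sets share transcripts was not tested.

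Tubb6, a beta tubulin, had signals of 122, 179, 341 and 318 in the 80 mg/kg livers, against 35.0, 58.0, 36.2, 35.0 and 53.9 in the 30 mg/kg livers (2.38 ± 0.39, adjusted p = 1.51e-05). Mybl1, a Myb family transcription factor, had signals of 71.7, 87.0, 144 and 203 in the 80 mg/kg livers, against 21.4, 29.1, 21.4, 19.1 and 25.5 in the 30 mg/kg livers (2.33 ± 0.30, adjusted p = 5.2e-07). In both the groups were far apart and the 30 mg/kg livers close together. The other large rises were of low signals. With the offset Adam8, a membrane protease, was 3.08 times higher, Gucy2c, a guanylate cyclase receptor, 3.55 times, Sfn, the 14-3-3 sigma protein, 3.49 times, Sapcd2 3.14 times, Tox3 2.09 times, and Unc5b, a netrin receptor, 3.18 times. Their log2 fold changes without it ran from 2.38 to 3.19 (adjusted p of 0.000243 to 0.023), and Sapcd2 was not called without 80 mg/kg replicate 4 or 5 or 30 mg/kg replicate 4 (0.0792, 0.063 and 0.0833).

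The largest fall among called genes was that of Stac3, whose product links the calcium channels of muscle and whose transcript is male-biased in rat liver. Its signals were 513, 348, 425 and 132 in the 80 mg/kg livers, against 1160.4, 2330.0, 1151, 1529 and 1823 in the 30 mg/kg livers (-2.28 ± 0.44, adjusted p = 0.000163). The highest 80 mg/kg liver was far below the lowest 30 mg/kg liver, and vehicle livers averaged 2359 ± 194. Apoa4, an apolipoprotein of triglyceride transport, gave 811, 645, 731 and 356 in the 80 mg/kg livers, against 1556, 1752, 3300.0, 2406 and 1204 in the 30 mg/kg livers (-1.66 ± 0.25, adjusted p = 5.44e-06). The groups were apart. Myh1, a skeletal myosin heavy chain, gave 1119, 549.6, 521 and 216 in the 80 mg/kg livers, against 1619, 1745, 1839, 2135 and 1177 in the 30 mg/kg livers (-1.70 ± 0.24, adjusted p = 1.05e-06), with 80 mg/kg replicate 2 close to the lowest 30 mg/kg liver. The other 3 measured members of the skeletal muscle list were not called, and 7 of the 11 were not measured.

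Inhba, which encodes the activin A subunit that restrains hepatocyte growth, had signals of 119, 88.4, 113 and 87.7 in the 80 mg/kg livers, against 179.5, 337, 289, 382 and 220.5 in the 30 mg/kg livers (-1.43 ± 0.20, adjusted p = 1.66e-06). The 80 mg/kg livers lay in a narrow band below the 30 mg/kg and vehicle livers, the last at 290.3 ± 51.5. Nfkbiz, an inflammatory regulator of the I kappa B family, averaged 52.1 ± 8.40 in the 80 mg/kg livers and 167 ± 81.4 in the 30 mg/kg livers (-1.57 ± 0.26, adjusted p = 1.58e-05). Mlc1 averaged 184 ± 69.7 in the 80 mg/kg livers and 447 ± 85.6 in the 30 mg/kg livers (-1.34 ± 0.23, adjusted p = 4.36e-05) and Synrg, of clathrin traffic, 392 ± 114 in the 80 mg/kg livers and 841 ± 118 in the 30 mg/kg livers (-1.14 ± 0.17, adjusted p = 5.9e-06). Lower signals fell too, by 1.22 on the log2 scale for Prtg and by 1.89 to 2.19 for Lrtm2, Kcnj13, Mrgprf and Dab1 (adjusted p of 0.000333 to 0.00817), or to 0.319 to 0.48 of the 30 mg/kg level with the offset.

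**Figure D3:**
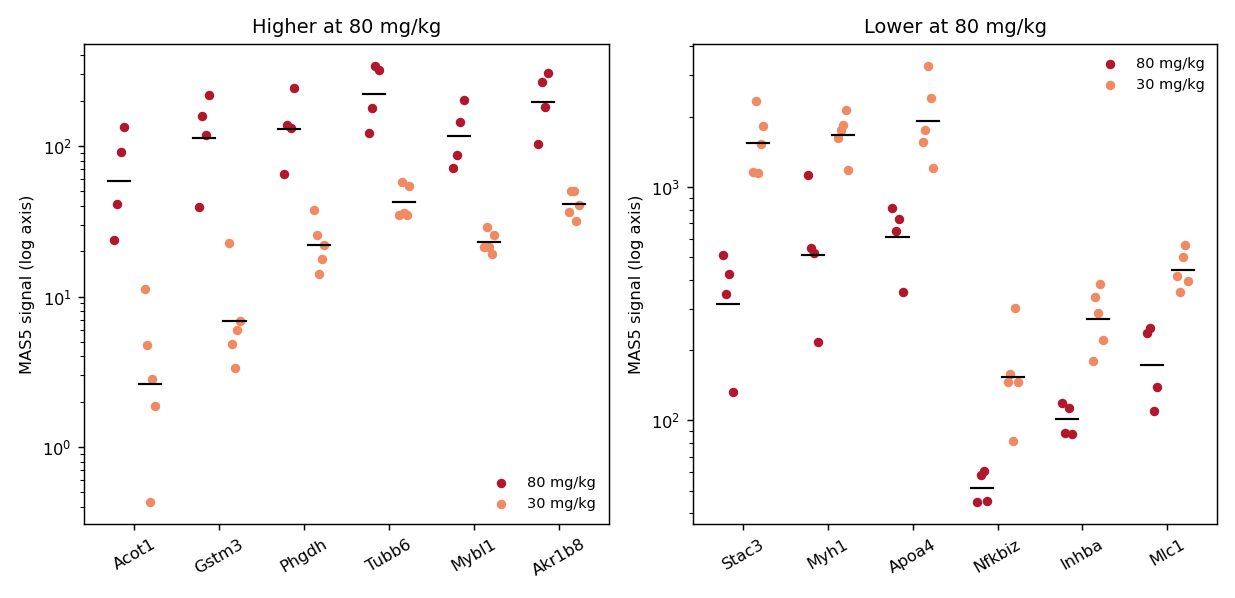
Signals on a log axis of 6 genes higher (left panel) and 6 lower (right panel) at 80 mg/kg, picked after their values were seen from the genes described above whose groups do not overlap, 1 point a liver, the 4 livers at 80 mg/kg left of the 5 at 30 mg/kg, with a line at the mean of the logs. The 80 and 30 mg/kg livers of Myh1 come close, at 1119 and 1177, while those of Mybl1 lie far apart.

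Genes of several programmes of the differentiated hepatocyte were lower at 80 mg/kg. Of 38 genes of the urea cycle and amino acid breakdown 16 fell and 1 rose (median -0.31). In 15 of the 38 every 80 mg/kg liver was below every 30 mg/kg liver, as in 5.58% of all genes. Kynu, which cleaves kynurenine in tryptophan breakdown, had signals of 1728, 1571, 1653 and 1222 in the 80 mg/kg livers, against 2309.9, 2585, 2347, 2768 and 2404 in the 30 mg/kg livers (-0.70 ± 0.15, adjusted p = 0.000575). Kmo, which acts before it, had signals of 574, 524, 505 and 440.2 in the 80 mg/kg livers, against 715, 913, 808, 722 and 769 in the 30 mg/kg livers (-0.62 ± 0.12, adjusted p = 0.00027). In both the groups were apart and 80 mg/kg replicate 5 was the lowest. Uroc1, of histidine breakdown, averaged 1764 ± 394 in the 80 mg/kg livers and 2565 ± 333 in the 30 mg/kg livers (-0.56 ± 0.16, adjusted p = 0.00918). The member that rose was Asl, the urea cycle enzyme that splits argininosuccinate, at 1843, 1972, 1951 and 1838 in the 80 mg/kg livers, against 1353, 1129, 1396, 1029.6 and 1213 in the 30 mg/kg livers (0.64 ± 0.13, adjusted p = 0.000378).

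Of 18 complement genes 8 fell and 0 rose (median -0.35), and of 16 coagulation factors 5 fell and 0 rose (median -0.22). C8a and C8g, chains of the membrane attack complex, averaged 2383 ± 222 in the 80 mg/kg livers and 3291 ± 246 in the 30 mg/kg livers (-0.47 ± 0.09, adjusted p = 0.000221), and 3046 ± 308 in the 80 mg/kg livers and 4232 ± 253 in the 30 mg/kg livers (-0.48 ± 0.10, adjusted p = 0.000634). C9, which completes that pore, gave 3982 ± 668 in the 80 mg/kg livers and 5377 ± 413 in the 30 mg/kg livers (-0.45 ± 0.13, adjusted p = 0.0131). Pros1, the anticoagulant protein S, had signals of 1254, 1201, 1265 and 1152 in the 80 mg/kg livers, against 1743, 1545, 1696, 1733 and 1672 in the 30 mg/kg livers (-0.46 ± 0.07, adjusted p = 1.65e-06), a small change with a very narrow spread. F12 and F10, clotting factors, had log2 fold changes of -0.50 ± 0.09, adjusted p = 0.000131 and -0.46 ± 0.08, adjusted p = 6.38e-05. Of 22 acute phase genes 3 fell, Serpina3m, a protease inhibitor, by most (1740.5 ± 217 in the 80 mg/kg livers and 2889 ± 253 in the 30 mg/kg livers, -0.74 ± 0.12, adjusted p = 1.06e-05) and Orm1, a carrier of drugs in plasma, by less (-0.45 ± 0.13, adjusted p = 0.0105), and 0 rose.

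Amino acid genes without 80 mg/kg replicate 5 counted 8 lower and 1 higher and complement 6 lower, and the adjusted p was 0.105 for Uroc1, 0.114 for C9 and 0.105 for Orm1. With arrays at a common median these 2 lists counted 19 and 12 lower, and with quantile normalization 9 and 7. Albumin, transthyretin and apolipoprotein A1 were not called: Alb averaged 6481 ± 548 in the 80 mg/kg livers and 7068 ± 1696 in the 30 mg/kg livers (log2 fold change -0.09 ± 0.15, adjusted p = 0.72), Ttr had -0.13 ± 0.12, adjusted p = 0.5 and Apoa1 -0.04 ± 0.11, adjusted p = 0.871. Of 23 plasma protein and apolipoprotein genes 4 fell, Apoa4 first, and 1 without 80 mg/kg replicate 5, and 0 rose.

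Bile acid genes had calls both ways: 12 of 27 fell (44.4% against 6.84% of all genes) and 4 rose (14.8% against 13.2%), with a median of -0.30. The 4 that rose were the efflux pumps Abcb4, Abcc2, Abcc3 and Abcc4. Abcg5 and Abcg8, the paired transporter of sterols into bile, fell together, Abcg5 with signals of 72.8, 36.6, 24.1 and 33.5 in the 80 mg/kg livers, against 60.7, 154, 58.1, 143 and 117 in the 30 mg/kg livers (-1.36 ± 0.37, adjusted p = 0.00621) and Abcg8 with 24.3, 6.67, 4.66 and 6.60 in the 80 mg/kg livers, against 13.9, 37.9, 8.19, 34.2 and 31.8 in the 30 mg/kg livers (-1.36 ± 0.46, adjusted p = 0.0289). In both 80 mg/kg replicate 2 lay among the 30 mg/kg livers, whose replicates 1 and 3 were low, so the groups overlapped. Amacr, of bile acid side chain shortening, averaged 2989 ± 522 in the 80 mg/kg livers and 4382 ± 307 in the 30 mg/kg livers (-0.57 ± 0.14, adjusted p = 0.00375). Abcc6, an exporter of the basolateral membrane, averaged 252 ± 38.9 in the 80 mg/kg livers and 374 ± 25.3 in the 30 mg/kg livers (-0.58 ± 0.12, adjusted p = 0.000342). Nr1h4, the bile acid receptor FXR, averaged 531 ± 70.6 in the 80 mg/kg livers and 774 ± 120.4 in the 30 mg/kg livers (-0.54 ± 0.14, adjusted p = 0.00576). Without 80 mg/kg replicate 5 the list counted 2 higher and 6 lower, with adjusted p of 0.0544 for Nr1h4 and 0.105 for Abcg8, and Abcg8 was not called either without 80 mg/kg replicate 3 or 4 or 30 mg/kg replicate 2, 4 or 5 (0.0782, 0.132, 0.0878, 0.0814 and 0.0687).

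Of 34 genes of fatty acid oxidation and the PPAR alpha programme 9 fell (26.5% against 6.84% of all genes) and 5 rose (14.7% against 13.2%), with a median of 0.01. Of 23 of fatty acid synthesis 5 fell (21.7%) and 0 rose (median -0.20). Of the 5 oxidation and PPAR alpha genes that rose, 4 were the thioesterases Acot1, Acot2, Acot3 and Acot4. Hadh, of mitochondrial beta-oxidation, had signals of 2303, 2039, 2164 and 1825 in the 80 mg/kg livers, against 2954, 3229.5, 3226, 2980.2 and 2909.5 in the 30 mg/kg livers (-0.56 ± 0.09, adjusted p = 7.69e-06), with the groups apart. Cyp4a8, a fatty acid hydroxylase, averaged 11.1 ± 7.62 in the 80 mg/kg livers and 39.4 ± 42.2 in the 30 mg/kg livers (-1.77 ± 0.54, adjusted p = 0.0151), where 30 mg/kg replicate 4 was far above the others. Thrsp, a regulator of lipogenesis, averaged 1445 ± 635 in the 80 mg/kg livers and 2664 ± 824 in the 30 mg/kg livers (-0.93 ± 0.31, adjusted p = 0.0267) and Pklr, the liver pyruvate kinase, 215 ± 62.0 in the 80 mg/kg livers and 404 ± 133 in the 30 mg/kg livers (-0.90 ± 0.24, adjusted p = 0.00576).

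Of 21 glucose metabolism genes 8 fell and 1 rose (median -0.17). Gckr, which holds glucokinase in the nucleus, averaged 584 ± 156 in the 80 mg/kg livers and 964 ± 139 in the 30 mg/kg livers (-0.75 ± 0.17, adjusted p = 0.00101). Slc37a4, the glucose 6-phosphate transporter, averaged 822 ± 92.3 in the 80 mg/kg livers and 1280.3 ± 117 in the 30 mg/kg livers (-0.64 ± 0.13, adjusted p = 0.000332). Khk, the first enzyme of fructose use, averaged 910.4 ± 139.9 in the 80 mg/kg livers and 1396 ± 153 in the 30 mg/kg livers (-0.62 ± 0.11, adjusted p = 5.56e-05). Pck2, the mitochondrial enzyme that makes phosphoenolpyruvate, was the member that rose, with signals of 93.4, 119, 127 and 149 in the 80 mg/kg livers, against 70.8, 58.2, 55.5, 57.7 and 77.7 in the 30 mg/kg livers (0.92 ± 0.13, adjusted p = 1.79e-06) and no overlap. Without 80 mg/kg replicate 5 the oxidation list counted 3 higher and 5 lower and fatty acid synthesis 3 lower, with adjusted p of 0.2 for Cyp4a8, 0.142 for Thrsp and 0.0642 for Pklr. Cyp4a8 was also not called without 30 mg/kg replicate 4 (0.0924), nor Thrsp without 80 mg/kg replicate 4 (0.132) or 30 mg/kg replicate 2 or 3 (0.0622 and 0.0804).

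**Figure D4:**
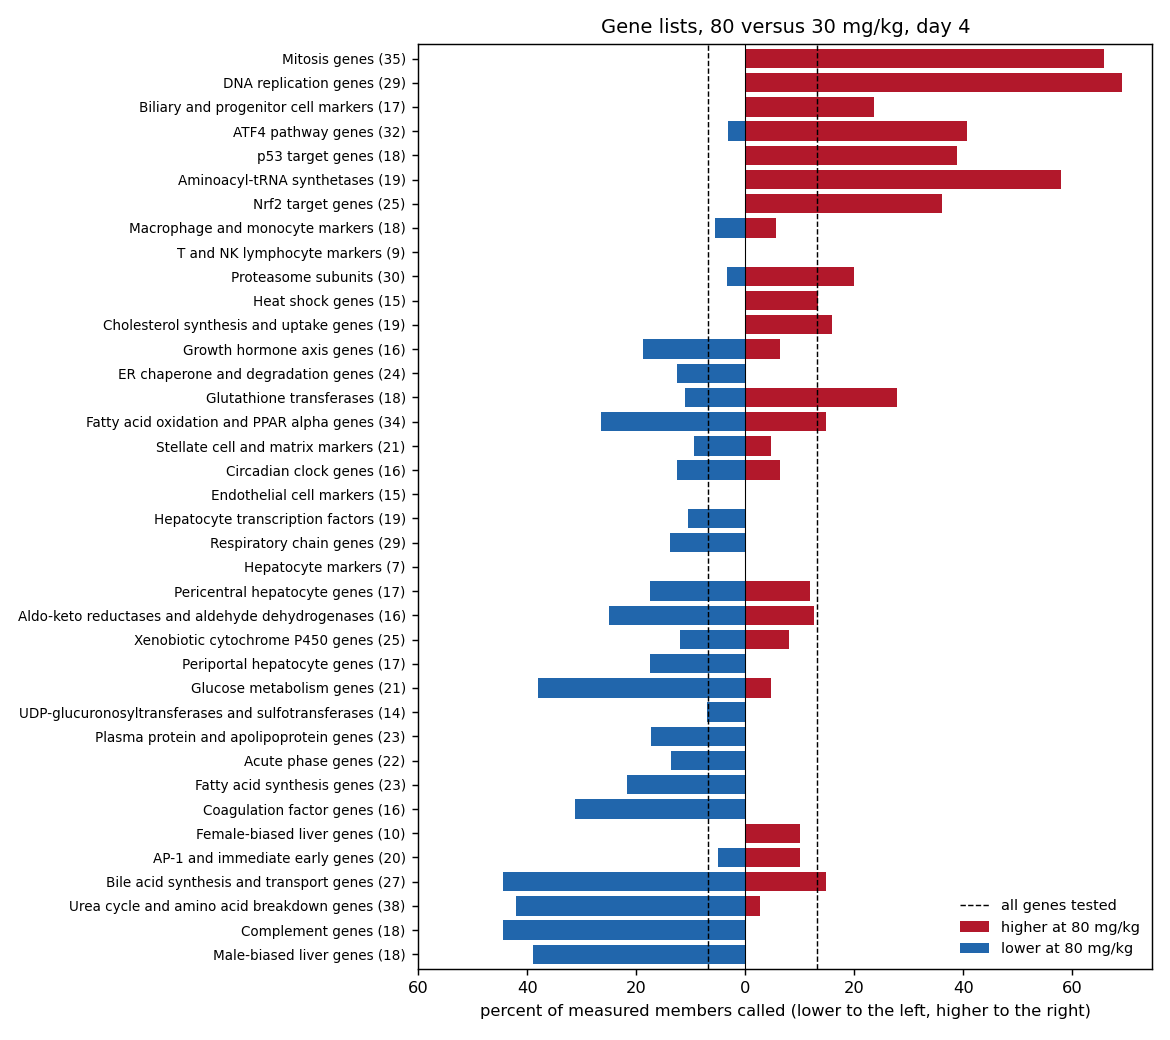
Percent of measured members called higher (red, to the right) and lower (blue, to the left) at 80 mg/kg for each list with 7 or more measured genes, with the number measured in brackets and lists ordered by their median log2 fold change. Dashed lines are the shares over all genes tested, 13.2% higher and 6.84% lower; mitosis genes stand at 65.7% higher and complement genes at 44.4% lower.

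Of 25 cytochrome P450 genes of drug metabolism 3 fell (12% against 6.84% of all genes) and 2 rose (8% against 13.2%), with a median of -0.16. Cyp2a2 averaged 2979.5 ± 409 in the 80 mg/kg livers and 4231 ± 428 in the 30 mg/kg livers (-0.51 ± 0.14, adjusted p = 0.00532). Cyp2d3 averaged 3062 ± 574 in the 80 mg/kg livers and 4134 ± 274 in the 30 mg/kg livers (-0.45 ± 0.12, adjusted p = 0.00509). Sult1c3, a sulfotransferase, averaged 2570.4 ± 272 in the 80 mg/kg livers and 4046 ± 467 in the 30 mg/kg livers (-0.65 ± 0.20, adjusted p = 0.0131). In rat liver many such genes are set by the male or female pattern of growth hormone. Of 18 male-biased genes 7 fell and 0 rose (median -0.36), Stac3 most. Hao2, a peroxisomal oxidase, had signals of 1536, 1219, 1619 and 1083 in the 80 mg/kg livers, against 3918, 3115, 2205, 3242 and 2326 in the 30 mg/kg livers (-1.10 ± 0.27, adjusted p = 0.00289). Rgn, a calcium-binding lactonase, had signals of 3708, 3201, 3496 and 3163 in the 80 mg/kg livers, against 4560.5, 5506, 5029.5, 5365 and 5311 in the 30 mg/kg livers (-0.60 ± 0.13, adjusted p = 0.000523). Both had their groups apart, while in Ust5r, an organic anion transporter relative, they overlapped (792 ± 159.7 in the 80 mg/kg livers and 1286 ± 238 in the 30 mg/kg livers, -0.70 ± 0.25, adjusted p = 0.0413).

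Of 10 female-biased genes 1 rose (10% against 13.2% of all genes) and 0 fell, with a median of -0.24. The member that rose was Cyp2c12, with signals of 249, 1219, 1070.1 and 1521 in the 80 mg/kg livers, against 387, 207, 384, 143 and 601 in the 30 mg/kg livers (1.46 ± 0.54, adjusted p = 0.0499). Its 80 mg/kg replicates 3, 4 and 5 were above all 30 mg/kg livers and replicate 2 was among the 30 mg/kg livers. Of 16 growth hormone axis genes 1 rose (6.25% against 13.2% of all genes) and 3 fell (18.8% against 6.84%). Igfbp2, a binding protein of insulin-like growth factors that rises when growth hormone action is low, had signals of 169, 176, 155 and 118 in the 80 mg/kg livers, against 86.8, 64.9, 43.9, 77.8 and 50.1 in the 30 mg/kg livers (1.28 ± 0.28, adjusted p = 0.000913), without overlap. Ghr, the hormone's receptor, averaged 1616 ± 127 in the 80 mg/kg livers and 2136 ± 129 in the 30 mg/kg livers (-0.40 ± 0.08, adjusted p = 0.000516). Igf1 averaged 4901 ± 289 in the 80 mg/kg livers and 6338 ± 864 in the 30 mg/kg livers (-0.36 ± 0.12, adjusted p = 0.0219). Igfbp3 averaged 373 ± 42.8 in the 80 mg/kg livers and 526 ± 92.7 in the 30 mg/kg livers (-0.48 ± 0.16, adjusted p = 0.0299).

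The male-biased list without 80 mg/kg replicate 5 counted 3 lower, and the adjusted p was 0.0511 for Cyp2a2, 0.0815 for Cyp2d3, 0.0725 for Sult1c3, 0.091 for Igf1 and 0.056 for Igfbp3. Igf1 also lost its call without 30 mg/kg replicate 2 or 3 (0.072 and 0.056), and Igfbp3 without 80 mg/kg replicate 2 or 3 (0.075 and 0.0855) or 30 mg/kg replicate 4 or 5 (0.0979 and 0.0621). Cyp2c12 was called in 2 of the 9 fits, those without 30 mg/kg replicate 5 or 80 mg/kg replicate 2, as was Ust5r without 30 mg/kg replicate 3 or 80 mg/kg replicate 2, and in the other fits the adjusted p was 0.0523 to 0.204 and 0.0555 to 0.157.

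Genes that mark the zones of the lobule were counted too. Of 17 pericentral genes 3 fell (17.6% against 6.84% of all genes) and 2 rose (11.8% against 13.2%). Of 17 periportal genes 3 fell (17.6%) and 0 rose. Oat, a pericentral enzyme of ornithine breakdown, had signals of 2602, 2554, 2795 and 1139 in the 80 mg/kg livers, against 3109.7, 3855, 3211, 3687 and 4017 in the 30 mg/kg livers (-0.73 ± 0.21, adjusted p = 0.00894). Replicate 5 of the 80 mg/kg group was far below the other livers, and without it Oat was not called (0.167). Of 19 hepatocyte transcription factors 2 fell (10.5% against 6.84% of all genes) and 0 rose. The 2 were Nr1h4 and Klf15, a regulator of amino acid breakdown (634 ± 32.0 in the 80 mg/kg livers and 926 ± 72.3 in the 30 mg/kg livers, -0.54 ± 0.16, adjusted p = 0.0108).

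Markers of other cell types of the liver were counted in the same way. The 17 measured biliary and progenitor markers summed to 7042 to 7898 at 80 mg/kg, 4774 to 5941 at 30 mg/kg and 4213 to 4709.6 with vehicle, and 4 rose with 0 falling (median 0.52). Krt8 and Krt18, keratins that hepatocytes share with bile duct cells, gave 2090.0, 2228, 2079 and 2364 in the 80 mg/kg livers, against 1439, 1603, 1259.6, 1184 and 1354 in the 30 mg/kg livers (0.69 ± 0.13, adjusted p = 0.000235) for Krt8 and 2621 ± 309.6 in the 80 mg/kg livers and 1669 ± 207 in the 30 mg/kg livers (0.65 ± 0.14, adjusted p = 0.000545) for Krt18. The difference in the sum rested mostly on these keratins: the other 15 markers summed to 2493 to 2786 at 80 mg/kg, 1957 to 2726 at 30 mg/kg and 1829 to 2364 with vehicle, with overlap between the doses. Ggt1, a gamma-glutamyl transferase, and Epcam, an adhesion molecule, were the others (0.79 ± 0.30, adjusted p = 0.0492 and 0.66 ± 0.24, adjusted p = 0.0419). Krt19 and Sox4, which hepatocytes lack or hold low, were not called (-0.33 ± 0.22, adjusted p = 0.3 and -0.09 ± 0.17, adjusted p = 0.762), and Krt7 and Sox9 were not measured.

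Ggt1 was not called in any of the 9 leave-one-out fits (adjusted p of 0.055 to 0.124), nor Epcam without 80 mg/kg replicate 3, 4 or 5 or 30 mg/kg replicate 3 or 4 (0.0578 to 0.179), and with arrays at a common median or quantile normalized the list counted 2. Macrophage and monocyte markers summed to 6773 to 8328 at 80 mg/kg and 6124 to 7625 at 30 mg/kg. Of 18 measured 1 rose and 1 fell, 5.56% each way, against 13.2% and 6.84% of all genes. Gpnmb, a glycoprotein of activated macrophages, averaged 193 ± 68.3 in the 80 mg/kg livers and 105 ± 26.0 in the 30 mg/kg livers (0.86 ± 0.27, adjusted p = 0.018) and Cd14, the endotoxin receptor, 896 ± 198 in the 80 mg/kg livers and 1316 ± 32.4 in the 30 mg/kg livers (-0.58 ± 0.14, adjusted p = 0.00219). Of 21 stellate cell and matrix markers 1 rose (4.76% against 13.2% of all genes) and 2 fell (9.52% against 6.84%). Acta2, the smooth muscle actin of activated stellate cells, had 0.83 ± 0.27, adjusted p = 0.021 and Pdgfra -0.37 ± 0.12, adjusted p = 0.0176. These 3 calls ended without single arrays, Gpnmb without 80 mg/kg replicate 4 or 5 or 30 mg/kg replicate 3 (0.0527 to 0.139), Acta2 without 80 mg/kg replicate 3 or 4 or 30 mg/kg replicate 1 or 4 (0.0525 to 0.0731), and Pdgfra without 80 mg/kg replicate 2 or 3 or 30 mg/kg replicate 1 or 4 (0.0513 to 0.0697).

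No call fell on the markers of endothelial cells (15 measured), T and NK cells (9), B and plasma cells (3), mast cells (4), neutrophils (1), erythroid cells (4), fat (3) or pancreas (3). Their summed signals overlapped between the doses, for instance 2542 to 3017 against 2471.5 to 3056.5 in endothelial markers and 167.2 to 232.1 against 160.4 to 208.4 in T and NK markers. Most neutrophil, B cell and erythroid markers were not measured, so shifts in those cells could have been missed. The part of other cell types in the differences above was not tested.

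The same doses were compared in other animals on later days. Of the 1420 genes higher on day 4, 1228 (86.48%) were called higher on day 8, where 31.6% of all genes were, and 1259 (88.66%) on day 15, where 37% were. Of the 734 lower genes 605 (82.43%) were called lower on day 8 and 620 (84.47%) on day 15, against 14.6% and 18.3% of all genes. Opposite calls numbered 1 and 2 on day 8 and 5 and 3 on day 15. After recovery, on day 24, 101 (7.113%) and 37 (5.041%) kept their direction and call, where 4.54% and 2.23% of all genes had one, and 13 and 8 had the opposite call.

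The size of the dose difference was tested between days. It differed from day 8 for 157 genes (1.46%), 68 with a higher (0.634%) and 89 with a lower (0.83%) log2 fold change on day 4. It differed from day 15 for 1930 genes (18%), 755 higher (7.04%) and 1175 lower (11%) on day 4. The day 8 count was unstable: it was 40 without 80 mg/kg day 4 replicate 2 and 343 without 80 mg/kg day 8 replicate 5. It was 316 without 80 mg/kg day 4 replicate 5. It was 57 to 103 without any 1 of 80 mg/kg day 4 replicates 3 and 4, 80 mg/kg day 8 replicates 1 and 3, 30 mg/kg day 4 replicates 1 and 5, or 30 mg/kg day 8 replicates 1, 2 and 5. The genes called higher had a median of 0.47 on day 4, 0.56 on day 8 and 0.72 on day 15, and those called lower -0.40, -0.51 and -0.66.

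Gstm3, Trib3, Ccna2 and Apoa4 had log2 fold changes of 4.04, 2.60, 2.16 and -1.66 on day 4, 4.23, 3.17, 2.44 and -2.07 on day 8, and 3.94, 2.48, 1.59 and -1.36 on day 15, with no called difference of day 4 from day 8 or 15. The fall of Stac3 was smaller on day 4 than later, at -2.28 ± 0.44 on day 4, -5.87 ± 0.41 on day 8 and -6.75 ± 0.41 on day 15 (adjusted p of the difference 0.00238 and 1.1e-06). Hao2 had -1.10, -2.35 and -2.52 on the 3 days, with a called difference to day 15 (adjusted p = 0.00615) and not to day 8 (0.0702). Srxn1 also had a larger difference on day 15, at 1.64, 1.95 and 2.63 (adjusted p = 0.0116 to day 15).

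Other differences were larger on day 4 than on a later day. Myh1 was lower by 1.70 on the log2 scale on day 4 and had -1.45 ± 0.22 on day 8 and -0.35 ± 0.22 on day 15 (adjusted p of day 4 against day 15 0.00228). Kcnj13, a potassium channel gene of low signal, had -1.91 ± 0.44, 0.34 ± 0.41 and -0.44 ± 0.41 (adjusted p = 0.0428 against day 8), and Pdgfra -0.37 ± 0.12, 0.22 ± 0.11 and -0.06 ± 0.11 (adjusted p = 0.0433 against day 8).

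Some macrophage and progenitor genes had a smaller difference on day 4 than later. Mmp12, an elastase of macrophages, had 0.50 ± 0.40 on day 4, 3.71 ± 0.38 on day 8 and 2.78 ± 0.38 on day 15 (adjusted p of the difference 0.00271 and 0.00278). Gpnmb had 0.86 ± 0.27, 2.27 ± 0.25 and 2.23 ± 0.25 (0.0352 and 0.00655). Sox4 had -0.09 ± 0.17, 0.88 ± 0.16 and 1.14 ± 0.16 (0.0247 and 0.000222), and Krt19 -0.33 ± 0.22, 0.38 ± 0.21 and 0.78 ± 0.21, with a called difference to day 15 (0.00711) and not to day 8 (0.214).

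**Figure D5:**
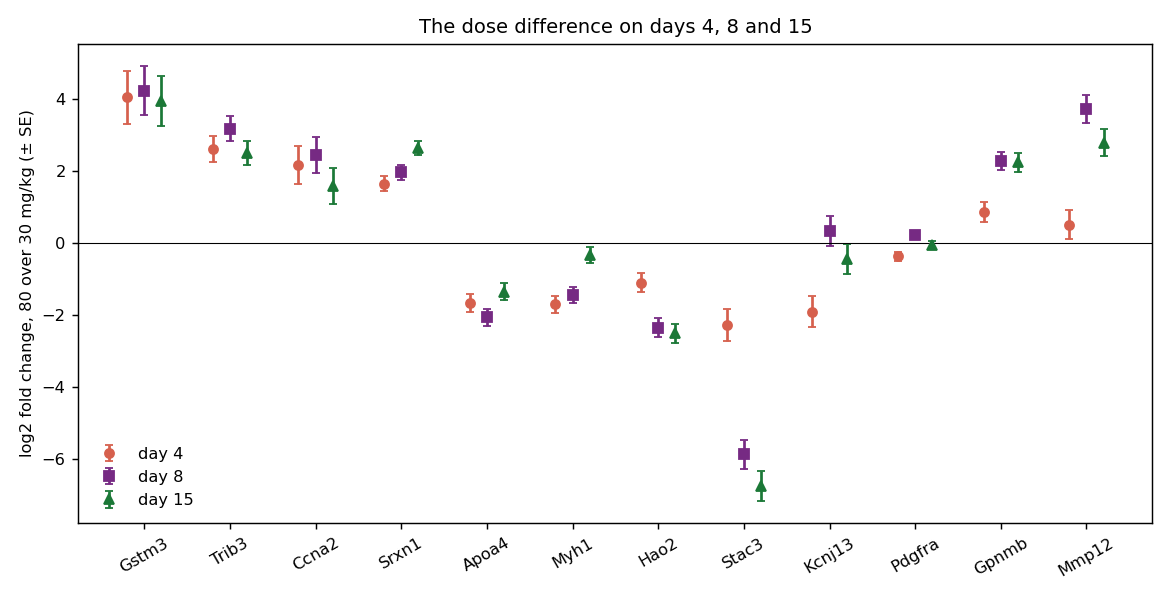
Log2 fold change of 80 over 30 mg/kg (y axis, bars are standard errors) for 12 genes on day 4 (circles), day 8 (squares) and day 15 (triangles), each day from separate animals. Gstm3 and Trib3 stand above 2 on every day, Stac3 stands at -2.28 on day 4 and -6.75 on day 15, and Mmp12 is near 0 only on day 4.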

How the data were processed

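RNA from whole rat liver was hybridised to Affymetrix Rat Genome 230 2.0 arrays. The deposited values are MAS5 signals, a linear intensity, per the submitters' processing notes, with the version not given in the sources used here. A trimmed mean of 99.992 on every array (2% left out at each end) shows scaling to 1 level. Of 31099 probe sets on 57 arrays, 20832 had 1 gene symbol, 436 several and 9831 none. Of the first, 20764 matched RefSeq's GRCr8 gene table. Signals were log2 transformed. Probe sets were kept where 4 or more arrays exceeded 17.09, the median over the whole table, and the highest-mean probe set stood for a gene, giving 10725. List members called not measured had no such probe set.

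Means of the 12 groups of dose and day were fitted to all 57 arrays with limma 3.58.1 in R 4.3.3 (eBayes with a variance trend, two-sided, Benjamini-Hochberg over all genes). Comparisons of days are interaction contrasts of that fit. Array measures were compared by exact permutation. SDs are over n = 4 livers at 80 mg/kg and n = 5 at 30 mg/kg and vehicle unless stated. The offset, the 20th percentile of all values, is 3.31. Lists are described by counts of called members and their median, with no test. Alternatives were a common median, quantile normalization, array weights, the offset, a filter at the 60th percentile or none, every probe set or a gene's average probe set, a fit to the contrasted groups alone or without the trend, the replicate number as a block, stricter calls, and each array left out. The steps were tested on simulated data.

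The comparison, gene lists, tests and the naming rule were chosen with earlier results of these data known. The rule takes the 12 largest called rises and falls without overlap, up to 4 called members of a list in its main direction and up to 2 against it, its most abundant members where none was called, the first 3 cell type markers, and the 4 largest interactions each way. From these 121 genes were taken for the text after their values were seen. Promoter windows were read from RefSeq for 102 of them. Figures used Python 3.11.15 with matplotlib 3.10.9, numpy 2.4.6 and pandas 2.3.3.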

Additional observations from a re-analysis of the deposited data

Results flagged for a closer look

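Among the genes named, 13 of the 242 groups of day 4 signals (121 genes, at 80 and at 30 mg/kg) held 1 liver whose gap to its neighbour was large for the range of the group by Dixon's test at the 95% level. About 1 in 20 groups is picked out so by chance alone. The liver that stood apart was the lowest of its group for Unc5b in 80 mg/kg replicate 3 (25.6), Amacr in 30 mg/kg replicate 3 (3855), Oat in 80 mg/kg replicate 5 (1139), Epcam in 80 mg/kg replicate 2 (193) and Epcam in 30 mg/kg replicate 4 (120.2). It was the highest for Synrg in 30 mg/kg replicate 4 (1045), Ddit4l in 30 mg/kg replicate 5 (12.6), Cyp2d3 in 30 mg/kg replicate 4 (4609.7), Acot2 in 30 mg/kg replicate 1 (784), Ghr in 30 mg/kg replicate 3 (2359), Dhrs7l1 in 80 mg/kg replicate 4 (4098), C6 in 80 mg/kg replicate 3 (938) and Tsx in 30 mg/kg replicate 2 (17.4).

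The difference between the doses was not the same on day 4 as on later days for some of the genes named, by limma's interaction test over all genes. Values are the log2 fold change of 80 over 30 mg/kg on day 4 minus that of the later day. Against day 8 it was above 0 in 8 genes, at 3.59 for Stac3, 0.67 for Cyp2d3, 1.16 for Sult1c3, 1.46 for Ust5r, 1.12 for Oat, 1.97 for Slc22a8, 1.93 for Dhrs7l1 and 1.78 for C6. It was below 0 in 7, at -2.25 for Kcnj13, -0.97 for Sox4, -1.41 for Gpnmb, -0.59 for Pdgfra, -3.21 for Mmp12, -2.996 for Mss51 and -2.85 for Tsx.

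Against day 15 it was above 0 in 40 genes, all of which were called lower at 80 mg/kg on day 15. The values were 4.47 for Stac3, 1.16 for Inhba, 0.74 for Synrg, 0.49 for Gstz1, 1.15 for Akr1c3, 0.54 for Sel1l, 0.41 for Pdia4, 1.07 for Cyp2a2, 1.04 for Cyp2d3, 1.27 for Sult1c3, 0.74 for Abcc6, 0.95 for Amacr, 0.83 for Kynu, 0.83 for Kmo, 1.18 for Uroc1, 1.25 for Thrsp, 1.12 for Pklr and 0.55 for Hadh. They were 0.96 for Gckr, 0.72 for Slc37a4, 0.63 for Khk, 0.47 for F12, 0.61 for F10, 0.86 for C8g, 0.48 for C8a, 0.96 for C9, 0.75 for Serpina3m, 0.55 for Orm1, 1.41 for Hao2, 1.82 for Ust5r, 0.83 for Rgn, 0.44 for Ghr, 0.51 for Igf1, 1.09 for Oat, 2.39 for Slc22a8, 3.21 for Dhrs7l1, 1.93 for C6, 3.70 for Sds, 3.57 for Mmd2 and 3.47 for Cish for the others. It was below 0 in 18 genes, at -1.45 for Akr1b8, -1.36 for Myh1, -0.99 for Srxn1, -1.81 for Abcc4, -0.69 for Aen, -0.81 for Sars1, -0.76 for Iars1, -0.65 for Gars1, -2.74 for Cyp2c12, -1.57 for Ggt1, -1.30 for Epcam, -1.11 for Krt19, -1.23 for Sox4, -1.37 for Gpnmb, -2.27 for Mmp12, -3.21 for Tsx, -3.62 for Pdlim4 and -3.39 for Bex1.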

How the results depend on the processing

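Under no alternative did a named gene change sign where it was called in the main or the alternative fit. Changes of sign without a call were not counted. Of the 106 named genes called, 62 kept the call under all settings run and 44 lost it in at least 1. The count of 2154 genes was 1140 at an adjusted p under 0.01 and 212 at 2-fold or more, and 1110 to 2266 with 1 array left out. It was 1569 with only the groups compared in the fit, and 1926 to 2230 under the other settings that count genes, apart from the replicate block. With every kept probe set fitted on its own, 2939 probe sets were called. The count against day 8 (157) was 394 with array weights, 70 with only the groups compared, and 40 to 343 with 1 array left out. The count against day 15 (1930) was 1356 to 2168 with 1 array left out, and with arrays at a common median 1187 differences were above and 548 below 0, against 755 and 1175. Against day 8 that setting gave 110 above and 36 below, against 68 and 89. Lists with more rises than falls numbered 13, and 8 with arrays at a common median. Scaling ended some calls: quantile normalization those of Acta2, Aldh1l2, Igf1, Pdia4, Slc22a8, Sult1c3, Thrsp, Uroc1 and Ust5r, and both scalings those of Chaf1a, Cyp2c12, Epcam and Ggt1. Fitting only the groups compared ended those of Abcg8, Acta2, Aldh1b1, Chaf1a, Cyp2c12, Cyp4a8, Epcam, Gstp1, Kcnj13, Klf6, Pdgfra, Thrsp, Tox3 and Unc5b. No filter ended those of Chaf1a, Cyp2c12, Epcam, Ggt1, Slc22a8 and Ust5r, averaging a gene's probe sets those of Chaf1a, Cyp2c12, Cyp4a8 and Ggt1, and leaving out the variance trend those of Cyp2c12, Ggt1 and Slc22a8. The cause was not tested. With the replicate number as a block 1206 genes differed between the doses (701 higher, 505 lower), 5 differed from day 8 and 1186 from day 15. The block ended the day 4 calls of Abcg8, Acta2, Adam8, Chaf1a, Chaf1b, Cyp4a8, Epcam, Gadd45a, Kcnj13, Oat, Pdgfra and Tox3. Livers of the same number did not deviate together (correlation of deviations -0.053 to 0.024), so the numbers were not taken as pairs. Low signals limit the folds of genes near the floor, where the offset of 3.31 shrinks them, and the design of 4 against 5 arrays limits all of them.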

Other observations

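Lists not described above are given here, beside 13.2% of all genes called higher and 6.84% lower. Of 19 genes of cholesterol synthesis and uptake 3 rose (15.8%) and 0 fell. With arrays at a common median 0 of them rose and 2 fell. Of 29 respiratory chain genes 0 rose and 4 fell (13.8%), and with arrays at a common median 16 fell. Of 14 UDP-glucuronosyltransferases and sulfotransferases 0 rose and 1 fell (7.14%), and of 16 circadian clock genes 1 rose (6.25%) and 2 fell (12.5%).

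Some genes had a larger dose difference in the separate animals of later days. Slc22a8, an organic anion transporter, had log2 fold changes of -0.79 ± 0.29 on day 4, -2.76 ± 0.27 on day 8 and -3.18 ± 0.27 on day 15, and its day 4 call (adjusted p = 0.0428) ended in 7 of the 9 fits that left out 1 array (0.0602 to 0.117), all but those without 80 mg/kg replicate 2 or 30 mg/kg replicate 3. Dhrs7l1, a short chain dehydrogenase, had -0.35 ± 0.36, -2.28 ± 0.34 and -3.56 ± 0.34, and C6, a complement component, -0.41 ± 0.31, -2.18 ± 0.29 and -2.33 ± 0.29. Neither was called on day 4.

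Sds, the serine dehydratase that feeds serine to glucose synthesis, had -1.03 ± 0.55 on day 4 (adjusted p = 0.183), -3.44 ± 0.51 on day 8 and -4.73 ± 0.51 on day 15. Mmd2 had -0.04 ± 0.52, -2.28 ± 0.49 and -3.62 ± 0.49, and was not called on day 4 either (adjusted p = 0.965). Cish, a feedback inhibitor of growth hormone signalling, had signals on day 4 of 305, 81.0, 69.9 and 127 in the 80 mg/kg livers, against 14.3, 17.9, 302, 38.2 and 49.5 in the 30 mg/kg livers. Its groups overlapped (adjusted p = 0.171), with log2 fold changes of -0.86 ± 0.73 on day 8 and -1.97 ± 0.73 on day 15, of which only the day 15 value was called.

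In the other direction Tsx had 0.76 ± 0.39, 3.61 ± 0.37 and 3.97 ± 0.37 on the 3 days, and Bex1 0.36 ± 0.62, 3.38 ± 0.58 and 3.75 ± 0.58. Pdlim4 had -1.29 ± 0.80, 2.23 ± 0.76 and 2.33 ± 0.76, and Mss51 -1.21 ± 0.59, 1.78 ± 0.56 and -0.43 ± 0.56. None of these 4 was called on day 4, when each averaged a low signal at both doses, 3.69 to 19.5 at 80 mg/kg and 5.43 to 11.8 at 30 mg/kg, and Mss51 was not called on day 15 (adjusted p = 0.528).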
